A study of Mus musculus with 24 samples.

Results

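The genes described here encode the pore-forming and auxiliary subunits of voltage-gated sodium channels, voltage-gated calcium channels and potassium channels. They were taken by name and level. A protein-coding gene entered when its mouse symbol began with Kcn or Cacn, or was Scn followed by a number and the letter a, and when its mean over 24 libraries was at least 0.5 CPM, the count scaled to the size of the library. Of 130 protein-coding genes with such names, 1 was left out for its position on chromosome 8, 21 were below the threshold and 108 remained, out of 53647 gene identifiers in the table. The genes nearest below the threshold were Kcnh8 at a mean of 0.374 CPM, Kcnrg at 0.347 CPM and Kcnq1 at 0.323 CPM. Nearest above it were Kcnk5 at 0.531 CPM, Kcnmb1 at 0.614 CPM and Kcng3 at 0.698 CPM. The 108 genes comprised 76 potassium, 24 calcium and 8 sodium channel genes, which were sorted by name into 13 channel types. All 108 passed the filter on low counts, and 27 of them averaged at least 100 CPM.

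Polyadenylated RNA was sequenced from the cortex of 24 mice aged 7.5 months, 8 of each of 3 genotypes. All mice carried the 5xFAD transgenes, human genes with mutations of familial Alzheimer's disease under the Thy1 promoter, which is active in neurons, so no group was free of them. One group carried 5xFAD alone, and by their titles the mice of the other 2 groups had both copies of M28L or of P522R, variants of Plcg2, the gene of a phospholipase C expressed in the brain mainly by microglia. Within each genotype 4 titles held the letter F and 4 the letter M, and every library had its own animal number and was taken as 1 mouse. The labels say nothing of litters or of how the variant lines were bred, so a difference between genotypes and one between colonies cannot be told apart.

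Voltage-gated sodium channels open briefly on depolarisation and carry the rising phase of the action potential, whereas voltage-gated potassium channels open with delay and end it. Calcium channels couple depolarisation to transmitter release, dendritic integration and transcription, and their alpha1 pore subunits are brought to the membrane and tuned by alpha2-delta and beta subunits. Inward rectifiers and two-pore domain channels carry resting potassium current, and in astrocytes they take up the potassium that neurons release.

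Promoters are printed for 3 leading genes because the data turn on how much transcript of each was present. The values of 1 of them, Kcnj13, are uncertain, as described below. The sequences are RefSeq's, on build GRCm38.p6, from 250 bases before to 50 after the annotated start, and 79 of the 108 genes had an entry. Capitals mark matches, on either strand, to 6 searched motifs. The TATA box was searched as TATAAA and the CCAAT box by its name's letters. The GC box was searched as GGGCGG. The cyclic AMP response element was TGACGTCA. The E-box was CACGTG. The EGR site, which can overlap a GC box, was GCGGGGGCG.
Kcna5, chr6:126535506-126535805, minus strand: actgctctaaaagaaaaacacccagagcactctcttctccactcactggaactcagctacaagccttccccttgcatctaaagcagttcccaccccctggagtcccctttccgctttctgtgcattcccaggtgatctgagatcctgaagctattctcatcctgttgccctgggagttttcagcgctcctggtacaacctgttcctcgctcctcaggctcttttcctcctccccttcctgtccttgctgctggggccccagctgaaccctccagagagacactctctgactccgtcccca
Kcna2, chr3:107101317-107101616, plus strand: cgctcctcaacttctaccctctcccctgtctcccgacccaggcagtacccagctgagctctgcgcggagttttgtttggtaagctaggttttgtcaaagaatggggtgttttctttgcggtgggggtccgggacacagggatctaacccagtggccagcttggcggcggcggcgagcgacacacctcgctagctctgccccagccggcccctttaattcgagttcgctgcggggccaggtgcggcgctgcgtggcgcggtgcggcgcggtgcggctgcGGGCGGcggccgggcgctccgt
Kcnj13, chr1:87394680-87394979, minus strand: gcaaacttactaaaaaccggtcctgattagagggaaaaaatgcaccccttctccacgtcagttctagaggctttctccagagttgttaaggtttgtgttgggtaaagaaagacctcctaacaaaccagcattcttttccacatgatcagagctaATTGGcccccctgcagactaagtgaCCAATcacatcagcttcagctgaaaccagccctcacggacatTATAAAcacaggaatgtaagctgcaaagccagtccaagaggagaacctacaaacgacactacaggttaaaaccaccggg
The Kcna5 window held none of the 6 motifs, and the Kcna2 window held 1 GC box. In the Kcnj13 window a TATA box lay at position -29 from the start, together with 2 CCAAT boxes, 1 of them on each strand. Over the 79 promoters a GC box was present in 43 (54.4%), against 35.9% of all 27025 promoters of the same length. A TATA box was present in 3 (3.8%) against 14.2%, a CCAAT box in 22 (27.8%) against 37.9%, and an EGR site in 7 (8.86%) against 2.92%. The E-box was present in 4 (5.06%) against 7.24%, and the cyclic AMP response element in none of the 79 (0%) against 1.88%. Median GC content of the 79 promoters was 62%, against 52.7% over all promoters.

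Total counts ran from 79230161 to 115154197 per library, and a channel gene had between 7 and 66080 counts in a library. Levels are given as CPM scaled by TMM factors, and per kilobase of exon where genes are compared with each other. Excitatory neuron markers, Slc17a7 among them, summed to between 3515 and 7790 CPM in every library. Choroid plexus markers summed to at most 21 CPM in every library except M28L mouse 17 with 274 CPM. Bc1, a neuronal noncoding RNA, took 3.61% to 10.4% of the counts in 5xFAD, 3% to 6.01% in M28L and 5.32% to 19.8% in P522R, with over 10% in 1, 0 and 4 libraries. Genes with at least 1 count numbered 27831 to 29012 per library in 5xFAD, 25608 to 28227 in M28L and 22958 to 26648 in P522R, so that P522R and 5xFAD did not overlap. TMM factors ran from 0.971 to 1.06, 1.01 to 1.06 and 0.849 to 1. The part of these differences between libraries in the channel calls was not tested. M28L mouse 28 stood apart: among the 8 M28L libraries it was the lowest for 53 of the 108 channel genes. P522R mouse 21 was the lowest of its group for 31 channel genes and the highest for 30.

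**Figure D1:**
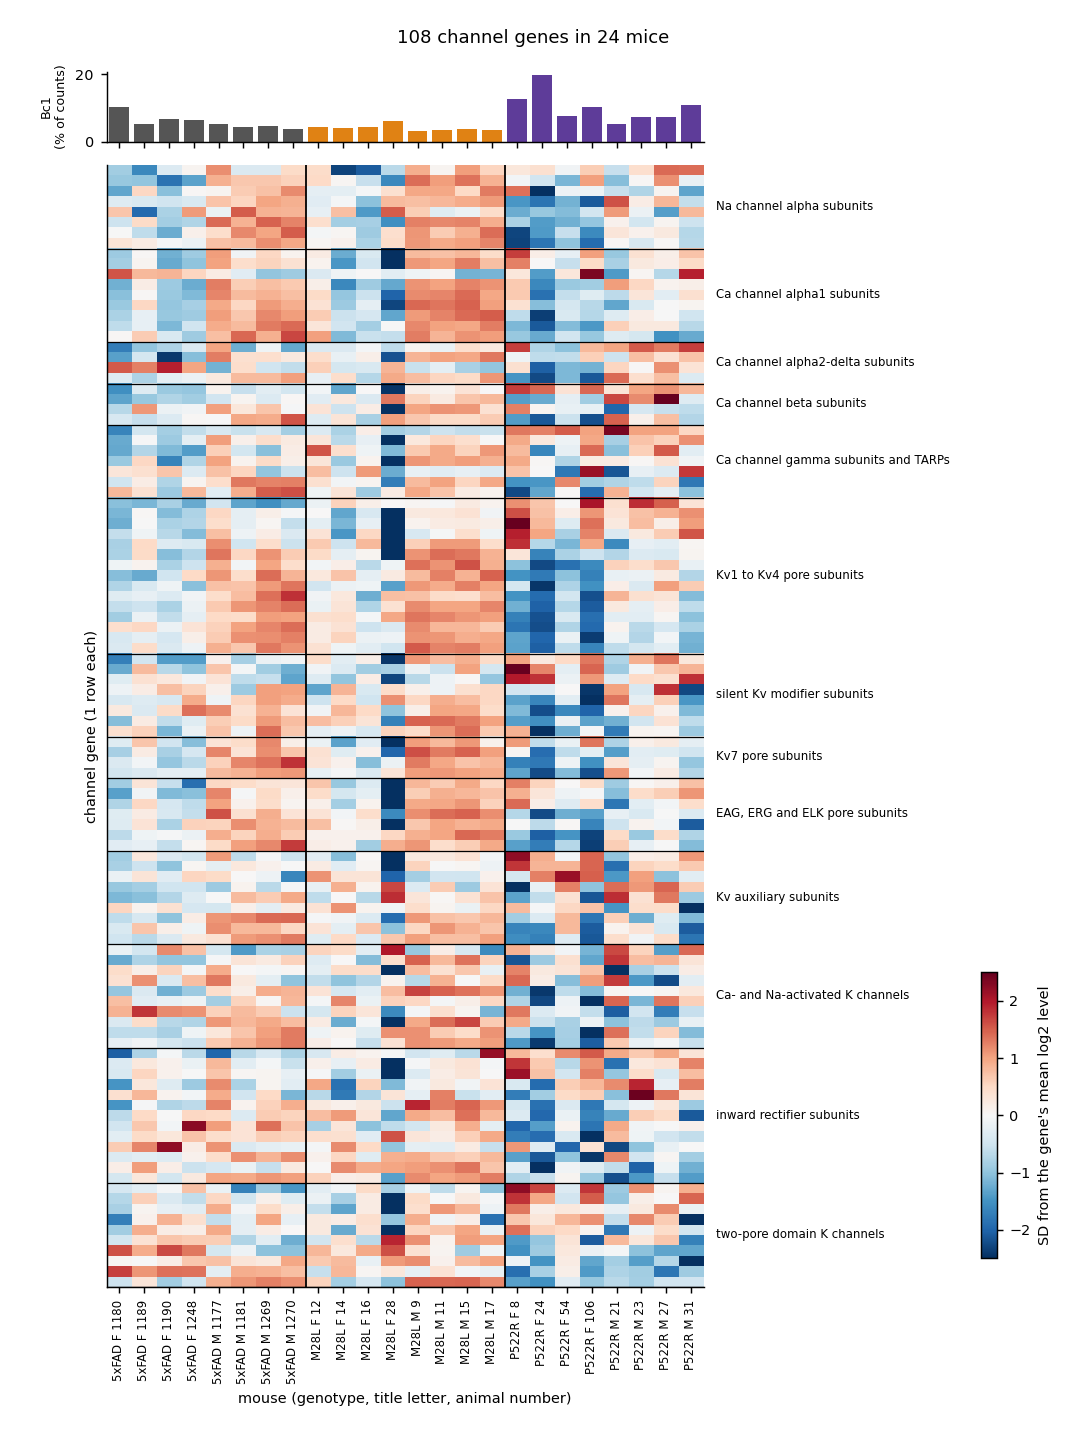
Levels of the 108 channel genes (rows, by channel type, sorted within a type by the difference of P522R from 5xFAD) in 24 mice (columns), coloured by distance from the gene's own mean log2 level in SD, with the share of counts taken by Bc1 above. M28L mouse 28 is the lowest of the M28L mice for 53 genes, and P522R mouse 24 has the highest Bc1 share, 19.8%.

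Per kilobase of exon, the most abundant channel transcript was Kcnab2, a cytoplasmic beta subunit of Kv1 channels, with a mean of 71.8 CPM per kb. Kcnj4, an inward rectifier of forebrain neurons, followed with 63.9, and Cacng7, which encodes an auxiliary subunit of AMPA receptors, with 62.1 CPM per kb. Among pore subunits of voltage-gated channels Scn2a had 24.4 CPM per kb. Summed over members, the Kv auxiliary type reached 179 CPM per kb, the inward rectifiers 171, and the Kv1 to Kv4 pore subunits 166, while the 9 calcium channel alpha1 subunits together reached 44.8.

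The first comparison asked which channel genes differ when the M28L variant is present. Kcna5, which encodes the Kv1.5 delayed rectifier, was higher in M28L, and no other channel gene was called in either direction. By edgeR's quasi-likelihood test, with a call at a Benjamini-Hochberg adjusted p below 0.05 over all 21280 genes, 1 of the 108 was called, against 1.21% of all genes tested, 0.503% higher and 0.71% lower. The median log2 difference of the 108 was 0.04, and that of all genes 0.01. At an unadjusted p below 0.05 there were 13 channel genes, and DESeq2 called 2, both higher. The share of all genes by either measure is not given, so these counts cannot be set against a background. In bulk cortex fewer cells of a type and less RNA per cell cannot be told apart, here and in every value below.

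Against 5xFAD, P522R mice differed far more widely. Of the 108 channel genes 33 were lower, 11 were higher and 64 were not called. Over all genes tested 29.8% were called in this comparison, 14.8% lower and 15% higher. Over protein-coding genes of at least 0.5 CPM, the population from which the channel genes came, 39% were called, 17.8% lower and 21.1% higher. The 44 called channel genes are 40.7% of the 108, near that background in number. The lower ones are 30.6% of the 108 and the higher ones 10.2%. The median difference was -0.16 on the log2 scale, against -0.04 over all genes. With the share of counts taken by Bc1 as a covariate the calls fell to 4 lower and 4 higher. The groups did not overlap for 4 channel genes, all higher in P522R (Kcna5, Cacnb1, Cacng3 and Kcnj13), against 1.71% of all genes in that direction and 1.18% in the other. The Kcnj13 values are uncertain, because it shares exon sequence with Gigyf2, as described below. Of the 13 channel types, 11 held a lower gene, 7 a higher gene and 5 held both.

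**Figure D2:**
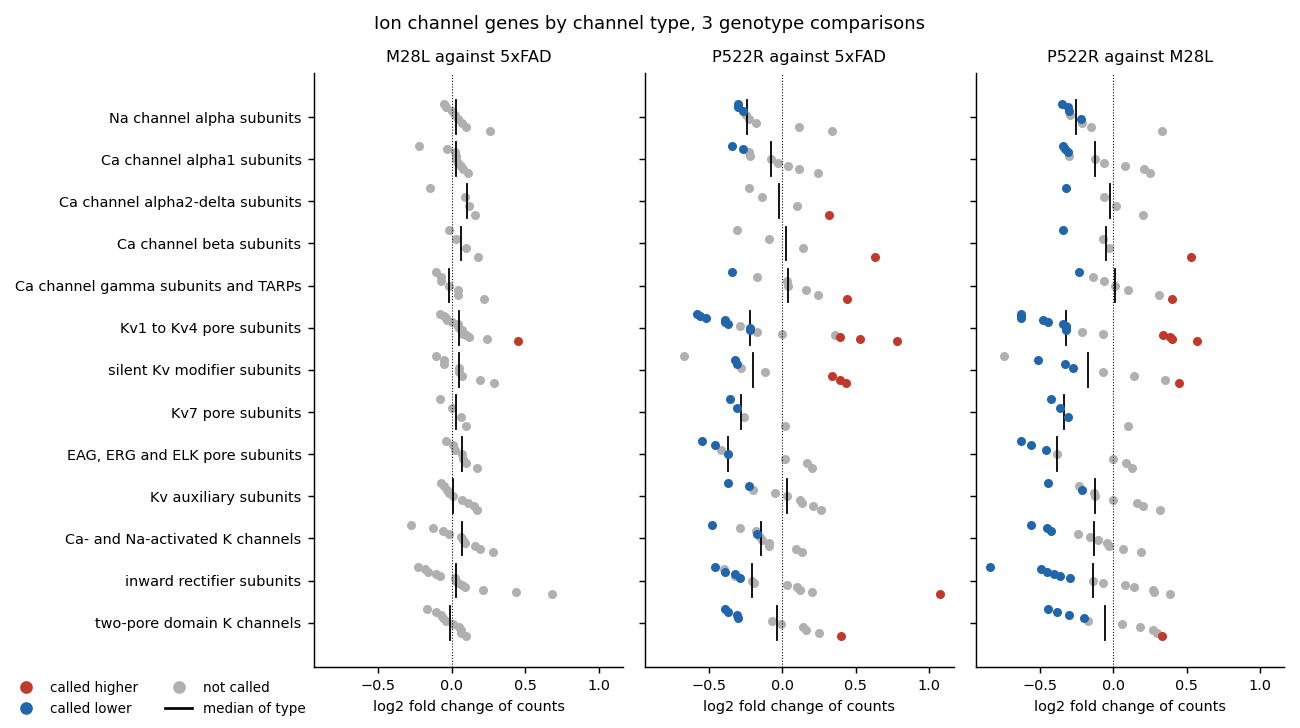
Log2 fold change of each of the 108 channel genes (points) by channel type (rows) in the 3 comparisons (panels), coloured by call, with the median of each type as a bar. In M28L against 5xFAD the single called gene is Kcna5 at 0.45; in P522R against 5xFAD 33 genes lie on the lower and 11 on the higher side, and the comparison of P522R with M28L shares the P522R mice with it.

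Kcna5 was low in cortex and rose in both variants. It is a single-exon gene on chromosome 6, at positions 126509514 to 126512375 on the minus strand in the coordinates of the deposited table, whose build is not named there. In the 8 mice of 5xFAD it ran from 7.13 through a median of 7.74 to 9.28 CPM. In M28L it ran from 10.1 through 10.7 to 12.1 CPM. In P522R it ran from 10.5 through 13.3 to 17.5 CPM. Every M28L and every P522R mouse was above every 5xFAD mouse, a separation that 0.127% of all genes showed in the higher direction for M28L and 1.71% for P522R. The log2 difference was 0.45 for M28L (SE 0.09, adjusted p = 0.011 by edgeR) and 0.78 for P522R (SE 0.09, adjusted p = 1.4e-06), or 1.36-fold and 1.72-fold. The exact two-sided permutation p was 0.00016 in both, the smallest that 8 against 8 mice can give. P522R exceeded M28L by 0.34 (SE 0.09, adjusted p = 0.0054), with overlapping groups. This last call was lost when offsets for GC content and gene length entered the fit (0.15, adjusted p = 0.19). The M28L call was lost with the Bc1 share as a covariate (0.46, adjusted p = 0.077), with the title prefix, whose meaning the labels do not give, as a block (0.42, adjusted p = 0.49), in mice of letter F alone (0.46, adjusted p = 0.31) and in mice of letter M alone (0.43, adjusted p = 0.36). The P522R call was kept with the covariate (0.76, adjusted p = 0.0014). The neighbours of Kcna5 in its cluster of Kv1 genes moved otherwise. Kcna1, 105 kb away, was lower in P522R, and Kcna6, a further 61.9 kb on, was not called.

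Kv1 to Kv4 pore subunits, which form the delayed rectifier and A-type channels of neurons, held 15 members, of which 8 were lower and 3 higher in P522R than in 5xFAD. Their median log2 difference was -0.22. Kcna2, the Kv1.2 subunit of axons, had a lowest, median and highest level of 224, 258 and 309 CPM in 5xFAD. The same values were 207, 256 and 296 CPM in M28L and 145, 196 and 235 CPM in P522R. All 8 P522R mice were below the mean of 5xFAD, though the groups overlapped at their edges. Kcna2 was lower by a log2 difference of -0.52 (SE 0.07, adjusted p = 4e-06 by edgeR, exact permutation p = 0.00031). Kcna1, the Kv1.1 subunit that assembles with it along axons, was lower by less (-0.22, SE 0.07, adjusted p = 0.019), and lost its call without P522R mouse 24 (adjusted p = 0.094). Kcna4, the inactivating Kv1.4, was at -0.22 (adjusted p = 0.0069 by edgeR) and was not called with offsets for GC content and length (-0.09, adjusted p = 0.22).

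Kcnb2, the Kv2.2 subunit, was lower by -0.37 (SE 0.10, adjusted p = 0.0082 by edgeR). The A-type subunits Kcnd2 and Kcnd3, Kv4.2 and Kv4.3 of dendrites and interneurons, were lower by -0.39 each, with adjusted p = 0.00037 and adjusted p = 0.00077 by edgeR.

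Kv3 channels allow fast spiking, and 3 of their genes are given here. Kcnc4 was higher by 0.39 (SE 0.11, adjusted p = 0.01 by edgeR), with 50.8, 60.2 and 72.1 CPM in 5xFAD and 61.4, 77.5 and 113 CPM in P522R as lowest, median and highest. Kcnc2 was lower by -0.56 (SE 0.10, adjusted p = 9.7e-05), with 47.9, 60.9 and 78.2 CPM in 5xFAD and 27.1, 41.2 and 53 CPM in P522R. Kcnc1 was not called (-0.17, SE 0.09, adjusted p = 0.16). With GC and length offsets the calls of Kcnc4 and Kcnc2 held, at 0.15 and -0.43, and Kcnc1 was called lower at -0.33 (adjusted p = 7.7e-06). The longest transcript of Kcnc4 had 59.6% GC, and that of Kcnc2 had 45.7%.

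**Figure D3:**
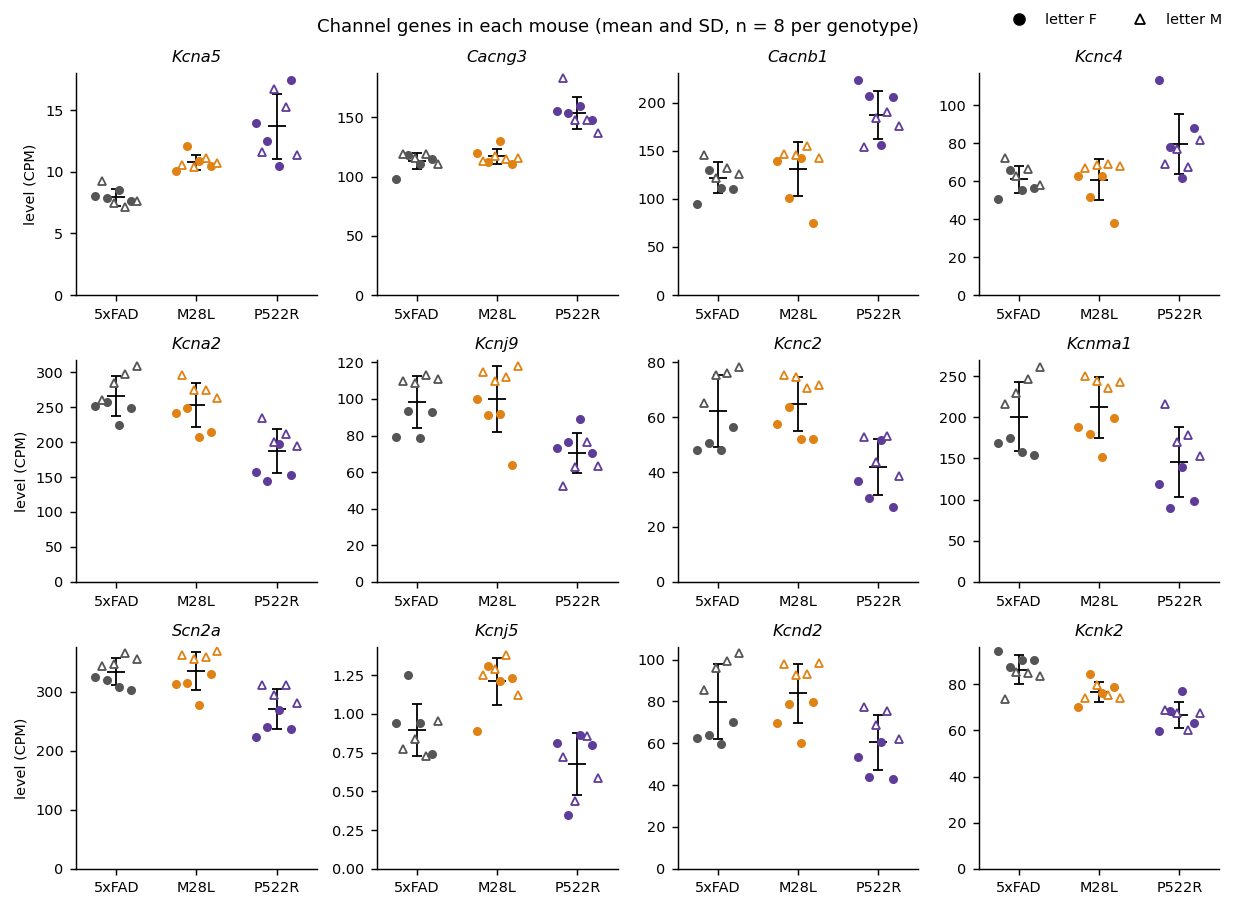
Level in CPM (linear axis from 0) of 12 channel genes in each mouse, filled circles for the title letter F and open triangles for M, with the mean and SD of the 8 mice of each genotype as bars. Kcna5, Cacng3 and Cacnb1 are higher in every P522R mouse than in every 5xFAD mouse, whereas the groups of Kcna2 and Kcnc2 overlap, and in 5xFAD the mean of letter M is above that of letter F for Kcnc2, Kcnma1 and Kcnd2.

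Silent modifier subunits, which form channels only together with other Kv subunits, held 8 members, 3 higher and 2 lower in P522R. Kcnf1 was lower (-0.32, SE 0.10, adjusted p = 0.019 by edgeR) and Kcns2 was lower (-0.31, SE 0.07, adjusted p = 0.0022). The Kcnf1 call was lost without P522R mouse 24 (adjusted p = 0.06), and adjusted p was 0.05 without P522R mouse 8. Kcng1 was higher by 0.43 (SE 0.11, adjusted p = 0.0044), from a mean of 23.9 CPM ± 3.54 (SD, n = 8) in 5xFAD to 31.9 CPM ± 4.53 in P522R. Kcns1 at 0.34 and Kcng2 at 0.39 were called by edgeR (adjusted p = 0.015 and adjusted p = 0.037) and were not called with the offsets. The Kcng2 call was also lost when any 1 of P522R mice 8, 24, 31 and 106 or 5xFAD mice 1180, 1190, 1248, 1269 and 1270 was left out (adjusted p up to 0.091).

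Kv7 subunits carry the M-current that restrains repetitive firing. Of 4 members 2 were lower in P522R: Kcnq5 by -0.36 (SE 0.08, adjusted p = 0.00075 by edgeR) and Kcnq3 by -0.31 (SE 0.08, adjusted p = 0.0044). The Kcnq3 difference was -0.11 with GC and length offsets (adjusted p = 0.1), which ended its call. Of the 7 EAG, ERG and ELK genes, which form slow voltage-gated potassium channels, 3 were lower. These were Kcnh7, an ERG subunit (-0.55, SE 0.12, adjusted p = 0.00073), and the EAG subunits Kcnh5 (-0.46, SE 0.09, adjusted p = 0.0004) and Kcnh1 (-0.37, SE 0.09, adjusted p = 0.002). Gca, whose exons overlap those of Kcnh7 and whose counts were 15.3% of it, was at 0.05 (adjusted p = 0.86). Kcnh3 was level at 92.3 CPM in both groups, but its exons overlap Mcrs1, with counts 62.5% of its own, so its value is uncertain. With the offsets it was called lower at -0.23 (adjusted p = 0.019). Without strand information reads of overlapping genes cannot be assigned.

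Among the 9 Kv auxiliary genes 2 were lower in P522R. Kcnab1, the Kv beta1 subunit that speeds inactivation, was at -0.37 (SE 0.10, adjusted p = 0.0046 by edgeR). Kcnip3, a calcium sensor that binds Kv4 channels, was at -0.23 (SE 0.08, adjusted p = 0.022), and lost its call when any 1 of P522R mice 8, 24, 31 and 106 was left out (adjusted p up to 0.069). Kcnab2 was not called at 0.26 (SE 0.13, adjusted p = 0.12), with 411, 451 and 613 CPM in 5xFAD and 401, 552 and 778 CPM in P522R, and was called without P522R mouse 21 (adjusted p = 0.03). Kcnip2, which raises surface Kv4, was at 0.21 (adjusted p = 0.11).

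Of 8 sodium channel alpha subunits 3 were lower in P522R and none was higher. Scn2a, the pore of excitatory neurons, had 304, 334 and 366 CPM as lowest, median and highest in 5xFAD. In M28L these were 278, 343 and 369 CPM, and in P522R 224, 276 and 312 CPM. Most P522R mice were below the lowest 5xFAD mouse, and the rest overlapped. The log2 difference was -0.30 (SE 0.05, adjusted p = 0.00013 by edgeR). Scn8a, the pore of the axon initial segment, was at -0.27 (SE 0.07, adjusted p = 0.004), and Scn3a, mainly a fetal form, at -0.30 (SE 0.08, adjusted p = 0.0042). Scn1a, the pore of inhibitory interneurons, was at -0.23 and not called (SE 0.09, adjusted p = 0.053), though it was called when M28L mouse 28, P522R mouse 21 or P522R mouse 27 was left out (adjusted p as low as 0.0033). With GC and length offsets Scn2a was at -0.10 (adjusted p = 0.098) and Scn3a at -0.10 (adjusted p = 0.2), so their calls were lost, while Scn8a stayed called at -0.21 (adjusted p = 0.0005). The median of the type moved from -0.24 to -0.06.

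Of 9 calcium channel alpha1 subunits 2 were lower in P522R and none was higher. Cacna1d, the L-type Cav1.3, ran from 30.6 through 39.8 to 46.9 CPM in 5xFAD and from 27.5 through 30.3 to 33.6 CPM in P522R, a log2 difference of -0.34 (SE 0.08, adjusted p = 0.0018 by edgeR). Chdh, which overlaps its exons with counts 12.4% of its own, was at -0.32 (adjusted p = 0.011). Cacna1e, the R-type Cav2.3, was at -0.27 (SE 0.07, adjusted p = 0.0029). The presynaptic P/Q-type Cacna1a and N-type Cacna1b were not called, at -0.03 (SE 0.09, adjusted p = 0.83) and -0.08 (SE 0.09, adjusted p = 0.54). Cacna1c, the L-type Cav1.2, was at -0.23 (adjusted p = 0.051) and was called when any 1 of P522R mice 54 and 106, M28L mice 12 and 28 and 5xFAD mouse 1190 was left out (adjusted p as low as 0.016). With GC and length offsets Cacna1b (-0.13, adjusted p = 0.044) and Cacna1c (-0.15, adjusted p = 0.045) were called lower.

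Among the 4 alpha2-delta and 4 beta subunits of calcium channels 1 of each was higher in P522R and none was lower. Cacnb1, a beta subunit that traffics the pore to the membrane, was higher in every P522R mouse than in every 5xFAD mouse. Its lowest, median and highest levels were 94.8, 124 and 145 CPM in 5xFAD, 74.4, 142 and 155 CPM in M28L, and 154, 187 and 223 CPM in P522R. The log2 difference was 0.63 (SE 0.11, adjusted p = 0.00015 by edgeR, exact permutation p = 0.00016), or 1.55-fold. It was 0.40 with GC and length offsets and 0.61 with Bc1 in the fit, and called in both, but the call was lost with the title prefix as a block (0.55, adjusted p = 0.067). Cacnb3 (-0.09, adjusted p = 0.43) and Cacnb4 (-0.31, SE 0.13, adjusted p = 0.071), the main beta subunits of forebrain neurons, were not called, though with the offsets Cacnb3 was called lower at -0.32 (adjusted p = 1.4e-05). Cacnb4 was called when M28L mouse 28, P522R mouse 54, 5xFAD mouse 1177 or P522R mouse 21 was left out (adjusted p as low as 0.0088). Cacna2d3, an alpha2-delta subunit, was higher by 0.32 (SE 0.08, adjusted p = 0.0031), while Cacna2d1, the binding site of gabapentin, was at -0.23 (SE 0.10, adjusted p = 0.076) and was called without M28L mouse 28 or P522R mouse 21 (adjusted p as low as 0.01).

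Cacng2, Cacng3, Cacng4, Cacng7 and Cacng8 bear calcium channel names, but their proteins are best known as transmembrane AMPA receptor regulatory proteins (TARPs) that traffic and gate synaptic glutamate receptors. Cacng3 was 98, 111, 111, 115, 116, 118, 119 and 119 CPM in the 8 mice of 5xFAD. In M28L its lowest, median and highest levels were 111, 116 and 130 CPM, and in P522R 137, 151 and 183 CPM. All 8 P522R mice were above all 16 others. The log2 difference from 5xFAD was 0.44 (SE 0.06, adjusted p = 7e-06 by edgeR) and that from M28L 0.40 (SE 0.06, adjusted p = 1.7e-05). Cacng2, stargazin, was lower in P522R by -0.34 (SE 0.09, adjusted p = 0.0046), with 82.7, 111 and 127 CPM in 5xFAD and 65.8, 85.2 and 112 CPM in P522R. Cacng8 was at 0.24 (adjusted p = 0.26) and Cacng7 at 0.04 (adjusted p = 0.72), which turned to a lower call with the offsets (-0.17, adjusted p = 0.019).

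Among 10 calcium- and sodium-activated potassium channel genes 2 were lower in P522R and none was higher. Kcnma1, the BK channel that repolarises and limits transmitter release, ran from 154 through 196 to 261 CPM in 5xFAD and from 90.1 through 146 to 216 CPM in P522R. The log2 difference was -0.48 (SE 0.08, adjusted p = 0.00012 by edgeR), and -0.30 with the offsets (adjusted p = 3.2e-05). The groups overlapped, and each divided by title letter: the means of letter F and M were 164 and 238 CPM in 5xFAD and 112 and 179 CPM in P522R. Kcnmb4, its neuronal beta subunit, was called at -0.17 (SE 0.06, adjusted p = 0.033), but not with GC and length offsets (-0.03, adjusted p = 0.83). Its call was also lost when any 1 of P522R mice 21, 24, 27 and 106 or 5xFAD mice 1181, 1189 and 1269 was left out (adjusted p up to 0.12). Kcnn3, a small-conductance channel, was at 0.28 in M28L against 5xFAD (SE 0.07, adjusted p = 0.052), was the second gene DESeq2 called there (0.27, adjusted p = 0.016), and was lower in P522R than in M28L by -0.42 (SE 0.07, adjusted p = 6.4e-05).

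The 13 inward rectifiers had 4 lower genes and 1 higher gene in P522R. Kcnj3 and Kcnj9 encode GIRK1 and GIRK3, channels opened by G-protein-coupled receptors in neurons. Kcnj9 was lower by -0.46 (SE 0.11, adjusted p = 0.002 by edgeR), with 78.7, 101 and 113 CPM in 5xFAD and 52.7, 72 and 88.9 CPM in P522R. Within mice of letter F this difference was -0.07 and not called, and within letter M it was -0.79 and called. Kcnj3 was lower by -0.39 (SE 0.09, adjusted p = 0.0025). Their partners Kcnj6 (GIRK2) and Kcnj5 (GIRK4) were not called against 5xFAD, at -0.19 (SE 0.08, adjusted p = 0.07) and -0.40 (SE 0.17, adjusted p = 0.085). Kcnj6 was called without 5xFAD mouse 1180 or P522R mouse 54 (adjusted p as low as 0.022). The glial rectifiers differed from each other. Kcnj16 (Kir5.1) was lower by -0.32 (SE 0.09, adjusted p = 0.0088), whereas Kcnj10 (Kir4.1), its partner and the main potassium channel of astrocytes, was not called at 0.10 (SE 0.07, adjusted p = 0.31). Of 10 astrocyte markers 4 were higher and 1 was lower, and with GC and length offsets 8 were higher and 1 was lower. Their part in these values was not tested. With the offsets Kcnj10 was called higher in P522R than in M28L. Kcnj2 was called at -0.29 (adjusted p = 0.014 by edgeR) and not with the offsets (-0.14, adjusted p = 0.2).

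Kcnj13, which encodes Kir7.1 and is best known from choroid plexus and retinal pigment epithelium, had the largest log2 difference of the 108 genes in this comparison. It was 0.635, 0.649, 1.12, 1.13, 1.17, 1.18, 1.32 and 1.54 CPM in 5xFAD. In P522R it ran from 1.81 through 2.29 to 3.02 CPM, above every 5xFAD mouse, a log2 difference of 1.07 (SE 0.22, adjusted p = 0.00051 by edgeR, exact permutation p = 0.00016). In M28L 7 mice were between 1.18 and 1.71 CPM, and mouse 17, the library with 274 CPM of choroid plexus markers, was at 3.95 CPM. Leaving out that mouse turned the uncalled difference of P522R from M28L (0.39, adjusted p = 0.16) into a called one (adjusted p = 0.0016). In P522R the choroid plexus markers summed to 8.79 to 21 CPM, against 5.53 to 12.1 CPM in 5xFAD, and 1 of 7 was higher. The gene lies within Gigyf2, on the opposite strand, and shares exon sequence with it. Gigyf2 had counts equal to 4402% of those of Kcnj13, was itself higher in P522R by 0.41 (SE 0.06, adjusted p = 6e-06), and ran from 62.2 to 72.9 CPM in 5xFAD and from 80.8 to 97.1 CPM in P522R. Without strand information reads of the 2 genes cannot be told apart, so the Kcnj13 values are uncertain.

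Two-pore domain channels, which set the resting potential, had 4 lower genes and 1 higher gene among 10. Kcnk2 (TREK-1) was lower: 73.5, 86.4 and 94.5 CPM as lowest, median and highest in 5xFAD, 70.4, 75.8 and 84.5 CPM in M28L and 59.6, 67.8 and 77.3 CPM in P522R. The log2 difference was -0.37 (SE 0.06, adjusted p = 5.3e-05 by edgeR) and the call held with the offsets (-0.39) and with Bc1 in the fit (-0.35), but was lost with the title prefix as a block (-0.34, adjusted p = 0.081). Kcnk9 (TASK-3) was lower by -0.39 (SE 0.09, adjusted p = 0.0013), and Kcnk10 (TREK-2) by -0.31 (SE 0.08, adjusted p = 0.0046). Kcnk6 (TWIK-2) was lower by -0.30 (SE 0.09, adjusted p = 0.017), a call lost without P522R mouse 8 or 24 (adjusted p up to 0.064). Kcnk13 (THIK-1), which in brain is a potassium channel of microglia, was higher by 0.40 (SE 0.10, adjusted p = 0.0042). It ran from 7.6 through 9.96 to 12.3 CPM in 5xFAD and from 8.87 through 13 to 16.6 CPM in P522R. Of 12 microglial markers 1 was higher and 2 were lower in that comparison. Kcnk1 (TWIK-1), the most abundant of the type at 38.1 CPM per kb, was not called (-0.07, SE 0.08, adjusted p = 0.54).

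Members that were lower in P522R than in 5xFAD were longer and poorer in GC than those that were higher. Median exon length was 7331 bases for the 33 lower, 3112 for the 11 higher and 4636 for the 64 not called, and median transcript GC content was 47.7%, 57.6% and 54.1%. Across the 108 genes, which are not independent replicates, Spearman's rho of the log2 difference was -0.39 with length and 0.54 with GC content. Across 14178 protein-coding genes of at least 0.5 CPM it was -0.27 and 0.45. After per-library offsets for GC content and length the values of the 108 were -0.16 and 0.03. With the offsets 11 genes were higher and 43 lower, against 31.6% of all genes tested called in either direction. This share and those of the Bc1 and letter fits below are over all genes tested. In the fit without offsets that share was 29.8%, against 39% of protein-coding genes of at least 0.5 CPM. The channel genes came from the latter, whose share is not given for the other fits. Of the 11 genes first called higher 9 kept the call, and of the 33 called lower 27 did. Among the 54 genes longer than the median of 5184 bases, 2 were higher and 22 lower, and with offsets 4 and 25. Among the 54 shorter or equal in length, 9 were higher and 11 lower, and with offsets 7 and 18. In this comparison lower calls were more numerous with the offsets than without, in the longer and in the shorter genes. The median log2 difference moved from -0.23 to -0.14 in the longer genes, from -0.03 to -0.08 in the shorter and from -0.16 to -0.11 in all 108. In P522R against M28L lower calls went from 29 to 22 among the longer genes and from 14 to 23 among the shorter. The part of length and GC content in the calls was not tested.

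**Figure D4:**
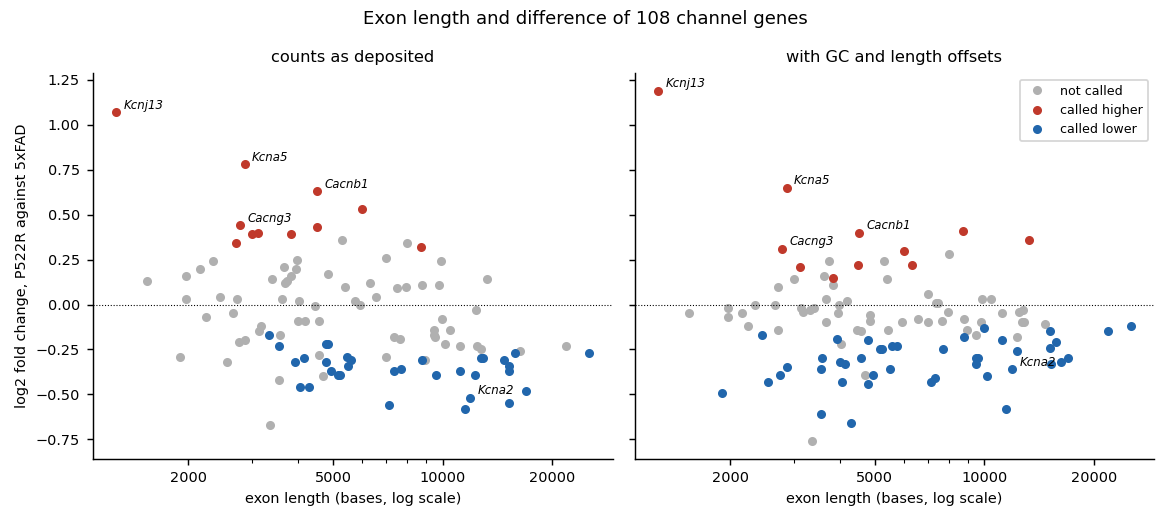
Exon length in bases (log axis) against the log2 fold change of P522R from 5xFAD for the 108 channel genes, from the counts as deposited (left) and with per-library offsets for GC content and length (right), coloured by call. Lower genes lie to the right of the left panel (median 7331 bases against 3112 for the higher ones), and Kcnj13, Kcna5, Cacnb1, Cacng3 and Kcna2 are called in both panels.

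The Bc1 share moved with genotype as well. With its log2 value as a covariate 4 channel genes stayed higher in P522R than in 5xFAD (Kcna5, Kcnj13, Cacnb1 and Cacng3). Another 4 stayed lower (Kcna2, Scn2a and Kcnk2 among them), and 4.18% of all genes tested were called. Without the 5 libraries above 10% the counts were 6 higher and 18 lower, against 11.5% of all genes tested. The part of Bc1 in the remaining calls was not tested beyond this. Kcna5, Kcnj13, Cacng3 and Kcna2 were among the 5 channel genes called under all 12 alternative fits and in all 24 fits that left out 1 library. None of these fits separates reads of Kcnj13 from those of Gigyf2, so its values stay uncertain.

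By title letter, the 4 P522R mice against 4 5xFAD mice gave 11 higher and 10 lower genes for F, against 13.6% of all genes called, and 8 higher and 35 lower for M, against 21.9%. Both letters called 11 genes, all in the same direction in both, among them Kcna5 (0.85 in F and 0.80 in M), Kcnj13 (1.19 and 1.02), Cacnb1 (0.91 and 0.43), Cacng3 (0.56 and 0.41), Kcnk13 (0.49 and 0.40), Kcna2 (-0.51 and -0.45), Kcnh5 (-0.49 and -0.35), Kcnma1 (-0.48 and -0.41) and Kcnk2 (-0.36 and -0.31). Another 32 genes were called in M alone, among them Kcnj9 (-0.07 in F and -0.79 in M), Cacna1d (-0.11 and -0.50), Kcnk9 (-0.13 and -0.58) and Scn8a (-0.09 and -0.36). In F alone 10 were called, among them Kcng1 (0.71 and 0.23) and Kcnc4 (0.66 and 0.20). A test of the interaction of genotype and letter called 0 channel genes in the comparison of P522R with 5xFAD by edgeR, against 0% of all genes. At an unadjusted p below 0.05 there were 20 channel genes, and the share of all genes at that threshold is not given. The interaction test also called 0 in M28L against 5xFAD, against 0.0282% of all genes, where no channel gene was at an unadjusted p below 0.05. In P522R against M28L it called 5 (Kcnh3, Cacna1h, Cacna2d1, Kcnt1 and Kcnj9), a share near the 5.47% of all genes. In 5xFAD itself many members stood higher in mice of letter M, and some lower, such as Kcnk6 at 8.48 CPM in F and 5.76 in M. Of the 8 5xFAD mice, F mice 1180 and 1190 were the lowest for 37 and 29 channel genes and the highest for 3 and 6. The share of all genes with such a difference is not given. Kcnd2 averaged 63.9 CPM ± 4.54 (SD, n = 4) in F and 95.9 ± 7.54 in M, and Kcnc2 50.8 ± 4 and 73.7 ± 5.74.

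**Figure D5:**
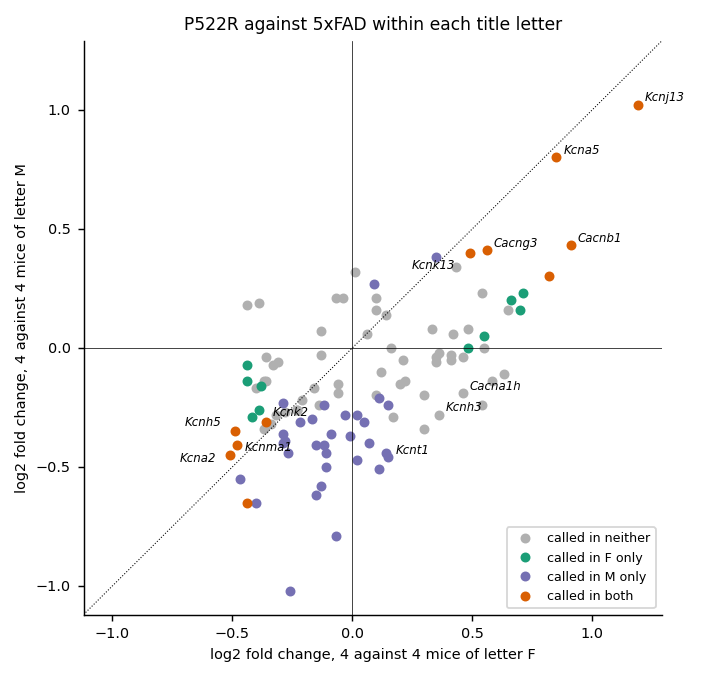
Log2 fold change of P522R from 5xFAD in the 4 against 4 mice of letter F (x axis) and of letter M (y axis) for the 108 channel genes, coloured by the letter in which a gene was called, with the line of equal values dotted. The 11 genes called in both letters lie at the upper right or lower left, and 32 genes were called in M alone against 10 in F alone.

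Compared with M28L mice, P522R mice had 43 lower and 8 higher channel genes, against a background of 34.8% called, 18.3% lower and 16.5% higher. Over protein-coding genes of at least 0.5 CPM the background was 46.5% called, 24.2% lower and 22.3% higher. The called channel genes are 47.2% of the 108, near that background in number, with 39.8% lower and 7.41% higher. These counts share the P522R mice with those above. The higher genes included Kcnc4, Kcnd1, Kcna5, Cacnb1, Cacng3, Kcns1 and Kcnk13. With the GC and length offsets 4 of the 8 lost the call (Kcnc4, Kcna5, Kcns1 and Kcnk13) and 3 others gained one. Of the 43 lower genes 14 lost the call with the offsets, and 16 others gained one. Kcnk13 was also not called in letter M alone (0.24, adjusted p = 0.22 by edgeR). Beside the microglial channel gene Kcnk13, 8 of 12 microglial markers were higher and none was lower in this comparison, with a median of 0.33. Their sum ran from 734 to 1448 CPM in M28L and from 829 to 1832 CPM in P522R, and its part in the Kcnk13 value was not tested. Kcnj5, the GIRK4 subunit, was near the level threshold and separated these groups fully. It ran from 0.891 through 1.24 to 1.38 CPM in M28L and from 0.344 through 0.76 to 0.863 CPM in P522R, a log2 difference of -0.84 (SE 0.17, adjusted p = 0.00047 by edgeR, exact permutation p = 0.00016). Groups that do not overlap in the lower direction were 0.963% of all genes, and in the higher direction, as for Cacng3, 1.65%. Kcnd3 was lower by -0.63 (SE 0.08, adjusted p = 3.3e-06), with 60.3, 78.3 and 85.5 CPM in M28L and 35.4, 51.4 and 61.7 CPM in P522R. Kcnc2 (-0.63, SE 0.10, adjusted p = 1.9e-05) and Kcnh5 (-0.63, SE 0.09, adjusted p = 1e-05) differed by the same amount. With the Bc1 share as a covariate 1 gene, Cacng3, was higher and none was lower, against 0.094% of all genes tested.

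The 30 partners of these channels outside the naming rule included beta subunits, HCN pacemaker channels and anchoring proteins. They gave 5 higher and 7 lower genes in P522R against 5xFAD, with a median of -0.09. Over protein-coding genes of at least 0.5 CPM 39% were called, 17.8% lower and 21.1% higher, and the partners were near that background in number. Fam155a, a subunit of the sodium leak channel, was lower by -0.60 (SE 0.07, adjusted p = 1.6e-06 by edgeR). Fgf14, which binds sodium channels at the axon initial segment, was lower by -0.52 (SE 0.08, adjusted p = 4.8e-05). Fam155a ran from 63.9 to 82.8 CPM in 5xFAD and from 39.7 to 59.4 CPM in P522R. The groups did not overlap, as for 1.18% of all genes in the lower direction. Lgi1, a secreted protein of Kv1 and AMPA receptor complexes, was higher by 0.38 (SE 0.07, adjusted p = 0.00022), from 144 to 175 CPM in 5xFAD to 181 to 269 CPM in P522R, and its receptor Adam22 was lower by -0.35 (SE 0.08, adjusted p = 0.00096). In M28L against 5xFAD none of the 30 was called by edgeR, against 1.21% of all genes tested.

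Neuronal, glial and vascular markers moved beside these genes. For scale, 17.8% of protein-coding genes of at least 0.5 CPM were lower in P522R than in 5xFAD and 21.1% higher. In P522R against 5xFAD 1 of 12 excitatory markers was higher and 4 lower, 3 of 10 inhibitory markers were higher, and 5 of 8 mural cell markers were higher. Among oligodendrocyte precursor markers 3 of 6 were higher and none lower, and among oligodendrocyte markers 1 of 8 was higher and 2 were lower. Of 7 endothelial markers 2 were higher and none was lower. Markers of tissue next to the cortex moved too: 3 of 7 for thalamus were higher and 1 was lower, and 3 of 7 for striatum were higher and 2 lower. Summed excitatory markers ran from 5344 to 7718 CPM in 5xFAD, 3515 to 6988 in M28L and 6396 to 7790 in P522R. Summed inhibitory markers ran from 1134 to 1375, 1212 to 1319 and 1128 to 1416 CPM, and summed mural markers from 168 to 217, 143 to 213 and 193 to 327 CPM. Summed precursor markers ran from 209 to 275 CPM in 5xFAD, 158 to 254 in M28L and 266 to 362 in P522R, and summed oligodendrocyte markers from 4702 to 5497, 4294 to 5030 and 4136 to 4975 CPM. Summed endothelial markers ran from 145 to 258, 112 to 214 and 173 to 251 CPM. For thalamus the sums were 61.3 to 79.1, 71.7 to 94.3 and 75.1 to 90.8 CPM, and for striatum 962 to 1218, 934 to 1163 and 1000 to 1346 CPM. The part of cell and tissue composition in the channel values was not tested.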

How the data were processed

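RNA from the cortex of 24 mice was obtained by chloroform extraction and a column kit and made into libraries with a KAPA mRNA HyperPrep kit, per the labels' protocols. The deposited values are raw counts per gene, made by the authors with STAR 2.7.2b and featureCounts, per the submitters' processing notes. The genome build, annotation and strand setting are not given in the sources used here. Symbols came from a reference list of gene names, which held 52093 of 53647 identifiers (97.1%). Gene type and GC content came from GENCODE M21, and GC content is that of each gene's longest transcript. Only 2.76% of the identifiers had the same start and end in GENCODE M21, so positions are given as deposited. Promoters are from RefSeq, GRCm38.p6.

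Each library was taken as 1 mouse. Where nothing says that mice came from separate litters, p-values measure the spread between these libraries. Total counts were 79230161 to 115154197. Counts were fitted with edgeR 4.0.16 (R 4.3.3, limma 3.58.1) over all 24 libraries, with genotype and title letter as terms, TMM factors and edgeR's filter on low counts, which left 21280 genes. A call is a Benjamini-Hochberg adjusted p below 0.05 in the quasi-likelihood test. The SE is the absolute log2 fold change over the square root of F. A prior count of 2 was used for log2 CPM. Exact two-sided permutation tests used all 12870 splits of 8 against 8, whose smallest p is 0.00016. Alternatives were RLE and upper-quartile factors, per-library lowess offsets for GC content and length (span 0.3), no filter and a mean of at least 1 CPM, no letter term, the Bc1 share as a covariate, no libraries above 10% Bc1, each letter alone, the title prefix as a block, DESeq2 1.42.0 and each library left out. Tables used Python 3.11.15, numpy 2.4.6 and pandas 2.3.3, and the fits were tested on simulated data. The text names up to 3 called members per channel type, comparison and direction with the smallest p, the member of each type with the highest level per kilobase, a list of landmark channel genes whatever their result, up to 4 called partners per comparison, the 3 members nearest the level threshold on each side, and members with a mouse set apart. Kcna3, Kcna6, Cacng4, Kcnd1 and Kcnj2 fall outside this and were chosen after their values were seen. The members, the lists and this rule were chosen with earlier results of these data known. Some genes and sequences are not reported here.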

Additional observations from a re-analysis of the deposited data

Results flagged for a closer look

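In 74 channel genes, 222 groups of 8 mice were examined for a mouse set apart from the other 7, which chance gives in about 1 of 20 groups, and 15 single values stood apart, several of them in the same mouse. M28L mouse 28 was the low one for 6 genes. It had 126 CPM of Cacnb3 (others 165 to 197), 17.6 CPM of Cacng8 (41.6 to 59), 65.3 CPM of Kcnf1 (106 to 140), 53.6 CPM of Kcnj4 (126 to 147), 22.4 CPM of Kcnj11 (37.4 to 47.1) and 77.5 CPM of Kcnip2 (117 to 133). M28L mouse 17 had 3.95 CPM of Kcnj13 (others 1.18 to 1.71), mouse 16 had 130 CPM of Cacng3 (111 to 120) and mouse 15 had 4.13 CPM of Kcng2 (2.72 to 3.24). Among P522R mice, mouse 24 had 28.1 CPM of Cacna1c (others 40.9 to 49.9), mouse 8 had 116 CPM of Kcnt1 (77.7 to 93.4) and mouse 21 had 92 CPM of Kcnip2 (131 to 160). Among 5xFAD mice, mouse 1180 had 98 CPM of Cacng3 (others 111 to 119) and 25.6 CPM of Kcnj16 (28.3 to 30.5), and mouse 1189 had 1.25 CPM of Kcnj5 (0.73 to 0.956).

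The difference of P522R from M28L depended on title letter for 5 of the 108 genes by edgeR's interaction test, a share near the 5.47% of all genes. For Kcnh3 it was larger in F than in M by 0.91 on the log2 scale (0.53 in F, -0.44 in M, adjusted p = 0.047). The same quantity was 0.82 for Cacna1h (0.55 and -0.32, adjusted p = 0.036). It was 0.75 for Kcnt1 (0.28 and -0.52, adjusted p = 0.028) and 0.67 for Kcnj9 (-0.09 and -0.82, adjusted p = 0.027). For Cacna2d1 it was -0.58 (-0.55 and -0.02, adjusted p = 0.042). The values in each letter come from separate fits, so their difference is not exactly the interaction value. The Kcnh3 values are uncertain, because its exons overlap Mcrs1.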

How the results depend on the processing

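In M28L against 5xFAD the count of higher channel genes was 2 with GC and length offsets and with DESeq2, 0 with the Bc1 covariate, in each letter alone and with the title prefix as a replicate block, and 1 to 2 when single libraries were left out. In P522R against 5xFAD higher genes numbered 4 with the Bc1 covariate, 6 without libraries high in Bc1, 3 with the block and 10 to 15 with a library left out. Lower genes numbered 21 without the letter term, 4 with the Bc1 covariate, 18 without libraries high in Bc1, 10 in letter F, 4 with the block, and 28 (without P522R mouse 24) to 42 (without M28L mouse 28). In P522R against M28L higher genes numbered 13 at 1 CPM or more and with DESeq2, 1 with the Bc1 covariate, without libraries high in Bc1 and with the block, 19 in letter F, 5 in letter M, and 7 to 16 (16 without P522R mouse 21). Lower genes numbered 0 with the Bc1 covariate, 25 without libraries high in Bc1, 24 in letter F, 8 with the block and 34 to 45 with a library left out. The interaction count for that comparison was 10 at 1 CPM or more. In P522R against 5xFAD 4.18% of all genes tested were called with the Bc1 covariate, 11.5% without libraries high in Bc1 and 13.6% in letter F. In P522R against M28L the share was 0.094% with the Bc1 covariate. No share of all genes is given for the other fits here, so their counts cannot be read as particular to channel genes. Animal numbers differ in every library and the labels do not say what the title prefix marks, so the block is not a pairing of mice. Directions turned with the offsets for Cacng7 (-0.17 against 5xFAD, -0.28 against M28L), Kcnh3 (-0.23 and -0.25) and, against M28L, Cacnb2 (0.24). Against M28L they turned in letter M for Kcnh3 (-0.44) and Cacna1h (-0.32). With the Bc1 covariate they turned against M28L for Cacnb4 (0.11), Cacng2 (0.02), Kcnb2 (0.04), Kcnq3 (0.02) and Kcnip3 (0.10), and Kcna3 was at 0.00. The cause was not tested.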
